A study of Mus musculus with 9 samples.

Results

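The genes described here are 38 mitosis and cytokinesis genes, taken as a named list of symbols. They cover entry into mitosis, the kinetochore and its checkpoint, the exit from mitosis, the spindle and the division of the cytoplasm. All 38 were found among the 35896 genes of the libraries, on 16 chromosomes, and all 38 were high enough to be tested, among 14648 genes in all. The lowest count of a member in any library was 125, for Pttg1, and the other 37 had over 500 counts in every library.

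Poly-A RNA came from E14 cells, a single established line of mouse embryonic stem cells grown without feeder cells on gelatin in serum medium. The first group, control +LIF2i, was kept self-renewing with the cytokine LIF, 1 µM of the MEK inhibitor PD0325901 and 1 µM of the GSK3β inhibitor CHIR99021. The second, control -LIF2i, spent 72 h without these factors. The last, CK666 -LIF2i, had the same 72 h without them and received 80 µM CK666, an inhibitor of the Arp2/3 complex that nucleates branched actin filaments, from the start and at each daily change of medium. The drug was dissolved in DMSO, no label mentions DMSO for the controls, and so drug and solvent cannot be told apart. Each group had 3 libraries, numbered 1 to 3, which the design text calls paired biological replicates. The p-values below measure the spread between these samples.

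Library totals ran from 16894327 to 22550952 estimated counts. The embryonic stem cell label was checked against 13 markers, whose summed level was 6888 to 12088 TPM (a transcript's share of the RNA after division by its length) with LIF2i, 5454 to 6075 TPM without it and 5562 to 7329 TPM with CK666. Pou5f1 stood between 1199 and 1866 TPM in the 9 libraries. Other markers moved with the groups: without LIF2i, Sox2 and the naive genes Nanog, Zfp42 and Esrrb fell, and Utf1, Lin28a and Epcam rose, each with an adjusted p of at most 0.000586 by edgeR's quasi-likelihood test. Zfp42 went from 380.5 TPM or more in every library with LIF2i to at most 37.0 TPM in control -LIF2i, and Epcam from at most 58.6 TPM to 252.0 TPM or more. Zfp42, Esrrb, Utf1, Lin28a and Epcam were picked from the list after their values were seen. Of the fibroblast, mesoderm, endoderm, neural and trophectoderm markers, 4 exceeded 10 TPM in any library: Thy1 reached 24.9 TPM, Tubb3 176 TPM, Sox1 14.8 TPM and Map2 12.1 TPM. The summed level of the 8 fibroblast markers was 6.34 to 13.4 TPM with LIF2i, 25.2 to 34.8 TPM without it and 16.0 to 25.7 TPM with CK666. That of the 5 neural markers was 31.7 to 187 TPM, 18.1 to 76.3 TPM and 24.3 to 68.3 TPM, with the top value in replicate 1 of the first group. The fibroblast gene Lum and the neural gene Neurog2 were at 0 in 8 of the 9 libraries and at 0.0307 and 0.0342 TPM in the other one. The 4 markers of formative pluripotency, the state after naive self-renewal, summed to 45.2 to 69.4 TPM with LIF2i, 401 to 1133 TPM without it and 231 to 755 TPM with CK666. The part of these cell states in the results below was not tested. RNA was measured in bulk, so fewer cells in mitosis and less RNA in each such cell cannot be told apart.

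Mitosis is driven by Cdk1 bound to cyclins A and B, whose kinase activity condenses chromosomes and builds the spindle. Kinetochores tie each chromatid to spindle microtubules, and those still unattached keep the spindle checkpoint on, which holds back Cdc20, the activator of the anaphase-promoting complex (APC/C). Once released, APC/C with Cdc20 marks securin and cyclin B for destruction, separase cuts cohesin, and the central spindle recruits the contractile ring that divides the cell. Embryonic stem cells in self-renewal are known for short gap phases and fast division. Promoters of many mitotic genes carry a cell-cycle homology region (CHR) near the start of transcription, often with CCAAT boxes upstream of it, and both elements are known to take part in their peak in G2 and M phase.

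Promoter windows, from 250 bases before to 50 bases after a gene's start, were taken from RefSeq (GRCm38.p6) and held 32 of the 38 members. Ccna2, Incenp, Spc24, Tpx2, Kif20a and Aurkb had no entry. The letters searched on both strands were TTTGAA (reverse complement TTCAAA) and TTTAAA (its own reverse complement) as CHR-type elements, and CCAAT (reverse complement ATTGG). Only exact matches were counted, and matches of different motifs were allowed to overlap. TTTGAA was present in the windows of 24 of the 32 members (75.0%), against 17.9% of all 32851 windows of the table, all 300 bases long. TTTAAA was in 9 members (28.1%), against 13.2%, and CCAAT in 24 members (75.0%), against 37.4%. A CHR-type element of either spelling together with a CCAAT stood in 23 members (71.9%), against 10.7% of all windows. Mad2l1, Nuf2, Nusap1 and Pttg1 had none of these letters in the window. Among the members that passed the test after LIF2i withdrawal, described below, TTTGAA was in the windows of all 3 raised members and of all 5 lowered members with an entry. The same letters were thus present on both sides of the response. A match is a description of the letters and not of a bound site.

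The windows of 2 raised members, Cdc20 and Plk1, and of 2 lowered members, Ccnb2 and Anln, are shown because these genes moved in opposite directions in every replicate pair while sharing the TTTGAA letters. Capitals mark each match on either strand, and no matches overlap in these 4 windows. The windows lie at chr4:118437294-118437593 (minus strand), chr7:122159185-122159484 (plus strand), chr9:70421505-70421804 (minus strand) and chr9:22389157-22389456 (minus strand) of GRCm38.p6 and are written 5′ to 3′ along the gene. The last 50 bases of each follow the annotated start. 
Cdc20: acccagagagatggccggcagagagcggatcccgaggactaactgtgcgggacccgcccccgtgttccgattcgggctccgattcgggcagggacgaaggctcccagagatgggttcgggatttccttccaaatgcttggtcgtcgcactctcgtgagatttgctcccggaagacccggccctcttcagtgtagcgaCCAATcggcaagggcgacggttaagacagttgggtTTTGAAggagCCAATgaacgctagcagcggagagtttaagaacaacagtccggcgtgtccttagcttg
Plk1: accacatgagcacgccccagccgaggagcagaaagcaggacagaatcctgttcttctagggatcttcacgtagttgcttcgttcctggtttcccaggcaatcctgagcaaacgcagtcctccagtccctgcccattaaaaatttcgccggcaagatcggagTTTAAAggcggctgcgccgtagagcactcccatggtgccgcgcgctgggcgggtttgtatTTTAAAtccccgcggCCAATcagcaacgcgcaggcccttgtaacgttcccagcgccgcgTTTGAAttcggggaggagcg
Ccnb2: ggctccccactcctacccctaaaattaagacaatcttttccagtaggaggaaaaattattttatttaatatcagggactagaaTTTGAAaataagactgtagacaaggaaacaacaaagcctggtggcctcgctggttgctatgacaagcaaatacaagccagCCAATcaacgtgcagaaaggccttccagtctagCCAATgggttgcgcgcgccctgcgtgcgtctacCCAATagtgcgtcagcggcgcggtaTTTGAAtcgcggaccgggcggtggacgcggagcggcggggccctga
Anln: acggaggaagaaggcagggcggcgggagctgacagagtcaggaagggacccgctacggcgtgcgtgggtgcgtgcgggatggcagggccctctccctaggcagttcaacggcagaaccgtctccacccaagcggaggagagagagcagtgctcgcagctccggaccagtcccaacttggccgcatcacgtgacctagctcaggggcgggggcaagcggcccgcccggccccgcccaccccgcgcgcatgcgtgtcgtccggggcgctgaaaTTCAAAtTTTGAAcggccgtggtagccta

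In Cdc20 the TTTGAA begins 18 bases before the start and lies between CCAAT matches that begin 53 and 8 bases before it. In Plk1 a CCAAT begins 14 bases before the start and a TTTGAA begins at base 31 after it, with TTTAAA matches farther upstream. Ccnb2 has 3 CCAAT matches, which begin 87, 54 and 21 bases before the start, with a TTTGAA that begins 167 bases before the start and another at base 5 after it. In Anln 2 TTTGAA matches, one on each strand, lie after the start, and no CCAAT is present in the window.

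Levels between members were compared in TPM, which divides by transcript length. The highest member was Top2a, the topoisomerase that untangles sister chromatids, with a mean of 375 TPM over the 9 libraries and a range of 229 to 758 TPM. It was followed by Ccnb1 (cyclin B1, mean 296 TPM), Cdk1 (275 TPM), Ube2c (the ubiquitin-conjugating enzyme of the APC/C, 247 TPM), Cenpa (the centromeric histone H3 variant, 242 TPM) and Cdc20 (232 TPM). The ranges of these 6 over libraries overlapped. At the low end stood large proteins of the spindle and kinetochore: Kif11 (33.3 TPM), Cenpf (29.7 TPM), Kif4 (28.0 TPM) and Cenpe (27.4 TPM), and these also overlapped one another. The 38 members together made up 3941 to 5717 TPM in a library, or 0.394% to 0.572% of all transcripts. Their sum was 4723 ± 866 TPM (SD, n = 3) in control +LIF2i, 4670 ± 347 TPM in control -LIF2i and 4159 ± 236 TPM in CK666 -LIF2i, and the 3 ranges overlapped. In library-scaled counts (CPM), which are not divided by length, the sum was 7117 to 8555 in control +LIF2i, 6524 to 7655 in control -LIF2i and 6413 to 6867 in CK666 -LIF2i. There the first and the last group did not overlap. Among the roles described below, the 7 spindle and chromosome members, Top2a among them, weighed most in that sum. They gave 3011, 2038 and 2050 CPM in control +LIF2i and 2163, 1650 and 1750 CPM in CK666 -LIF2i. The sums were not tested.

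**Figure D1:**
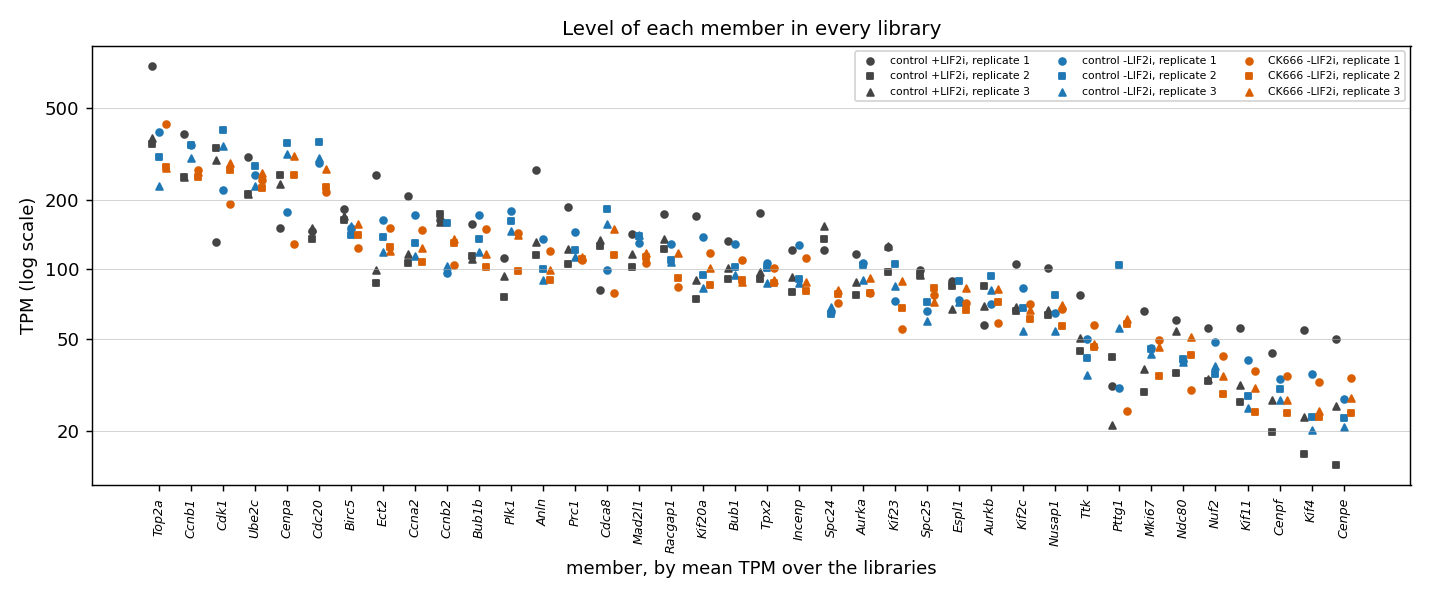
Level of each of the 38 members in TPM (log scale) in every library, with members ordered by their mean over the libraries, colours for the groups and symbols for the replicate numbers. Top2a is at the top with up to 758 TPM and Cenpe at the bottom with a mean of 27.4 TPM, and neighbours in the order overlap.

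Some of this RNA was assigned by the authors' quantification to transcripts that do not encode the full protein. For Cdk1, a retained-intron transcript of 475 bases, Cdk1-204, carried a median of 46.4% of the gene's TPM (41.3% to 49.5% over libraries), close to the 46.1% of the coding transcript Cdk1-202. For Mad2l1, a checkpoint protein that sequesters Cdc20, the retained-intron transcript Mad2l1-203 carried a median of 42.3%. For Cenpa, a transcript annotated for nonsense-mediated decay, Cenpa-202, carried 38.2%. By contrast Cdc20 was carried almost entirely by a single coding transcript. Ccnb2 had only 1 annotated transcript, so its share was fixed in advance. Summed gene values for Cdk1, Mad2l1 and Cenpa therefore include RNA outside their coding transcripts.

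Replicate 1 stood apart in all 3 groups, and it did so by transcript length. Relative to replicates 2 and 3 of the same group, 16 members were lower and 9 higher in replicate 1 of every group. The 16 had a median effective length of 1407 bases and the 9 had 3792 bases. Cdk1, for example, had 54.8, 174 and 147 normalised counts (CPM, library-scaled by the trimmed mean method, TMM) in control +LIF2i, then 80.7, 193 and 160 CPM in control -LIF2i and 70.2, 124 and 134 CPM in CK666 -LIF2i. The replicate 1 library was the lowest of each group. Over the 38 members, the rank correlation of this offset with log2 effective length was 0.83, 0.77 and 0.82 in the 3 groups, against 0.40, 0.37 and 0.33 over all 14648 genes. These are descriptions across genes of the same libraries, which are not independent of one another. The test used carries the replicate number as a block, and counts of members without replicate 1 are given with each comparison.

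**Figure D2:**
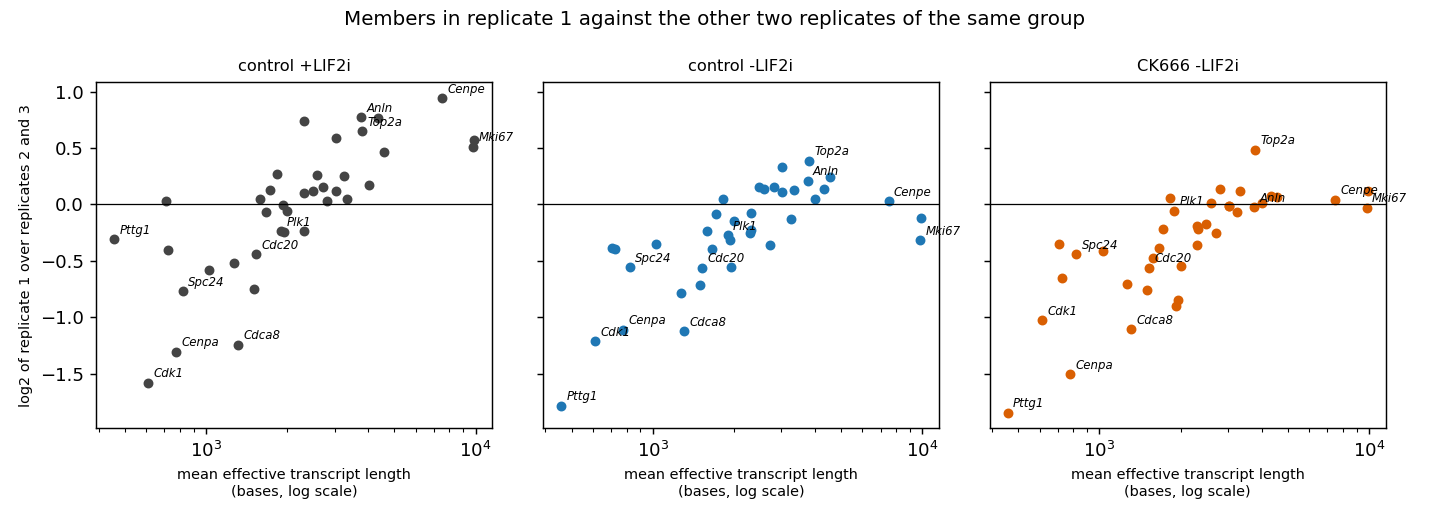
The log2 ratio of each member in replicate 1 over the mean of replicates 2 and 3 (y axis), against its mean effective transcript length in bases (x axis, log scale), 1 panel a group and 1 point a member. Cdk1 and Cenpa, at 612 and 775 bases, are below 0 in every panel and Top2a, at 3792 bases, is above 0. Not every member follows its length: Mki67, at 9801 bases, is at 0.51, -0.32 and -0.03, Cenpf, at 9879 bases, is at 0.57, -0.12 and 0.12, and the short Ube2c is at 0.04 in control +LIF2i.

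The first comparison, control -LIF2i against control +LIF2i, asks how these genes change as the cells leave self-renewal. Of the 38 members 29 did not pass the test, and those that passed moved in both directions. Cdc20, Plk1 and Cdca8 rose, and Spc24, Anln, Spc25, Ccnb2, Top2a and Kif23 fell. Cdc20 was 2.12-fold higher and Spc24 2.25-fold lower without LIF2i, and these were the only members past a log2 fold change of 1 in size. By the quasi-likelihood test of edgeR, with p-values adjusted by Benjamini-Hochberg over all genes, 9 of 38 members passed (adjusted p under 0.05), 3 raised and 6 lowered. Over all 14648 genes 40.7% passed, 21.1% raised and 19.7% lowered, so the members' 23.7% lay below the background. The median absolute log2 fold change was 0.23 over the members and 0.50 over all genes, while the median SE was 0.126 for the members and 0.206 for all genes. The signed medians were -0.06 and 0.01. Over the 8183 genes within the members' range of mean level, 19.5% were raised and 22.9% lowered, with a median of -0.03. In CPM, 2 members were higher and 7 lower with no overlap between the groups, against 21.5% and 19.2% of all genes. Without replicate 1, 12 members passed, 6 in each direction, beside 44.8% of all genes. Without the replicate block 3 passed, Cdc20, Plk1 and Spc24, beside 24.0% of all genes. The count was 3 without replicate 3 and 4 without control -LIF2i replicate 1, beside 20.7% and 31.5% of all genes.

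**Figure D3:**
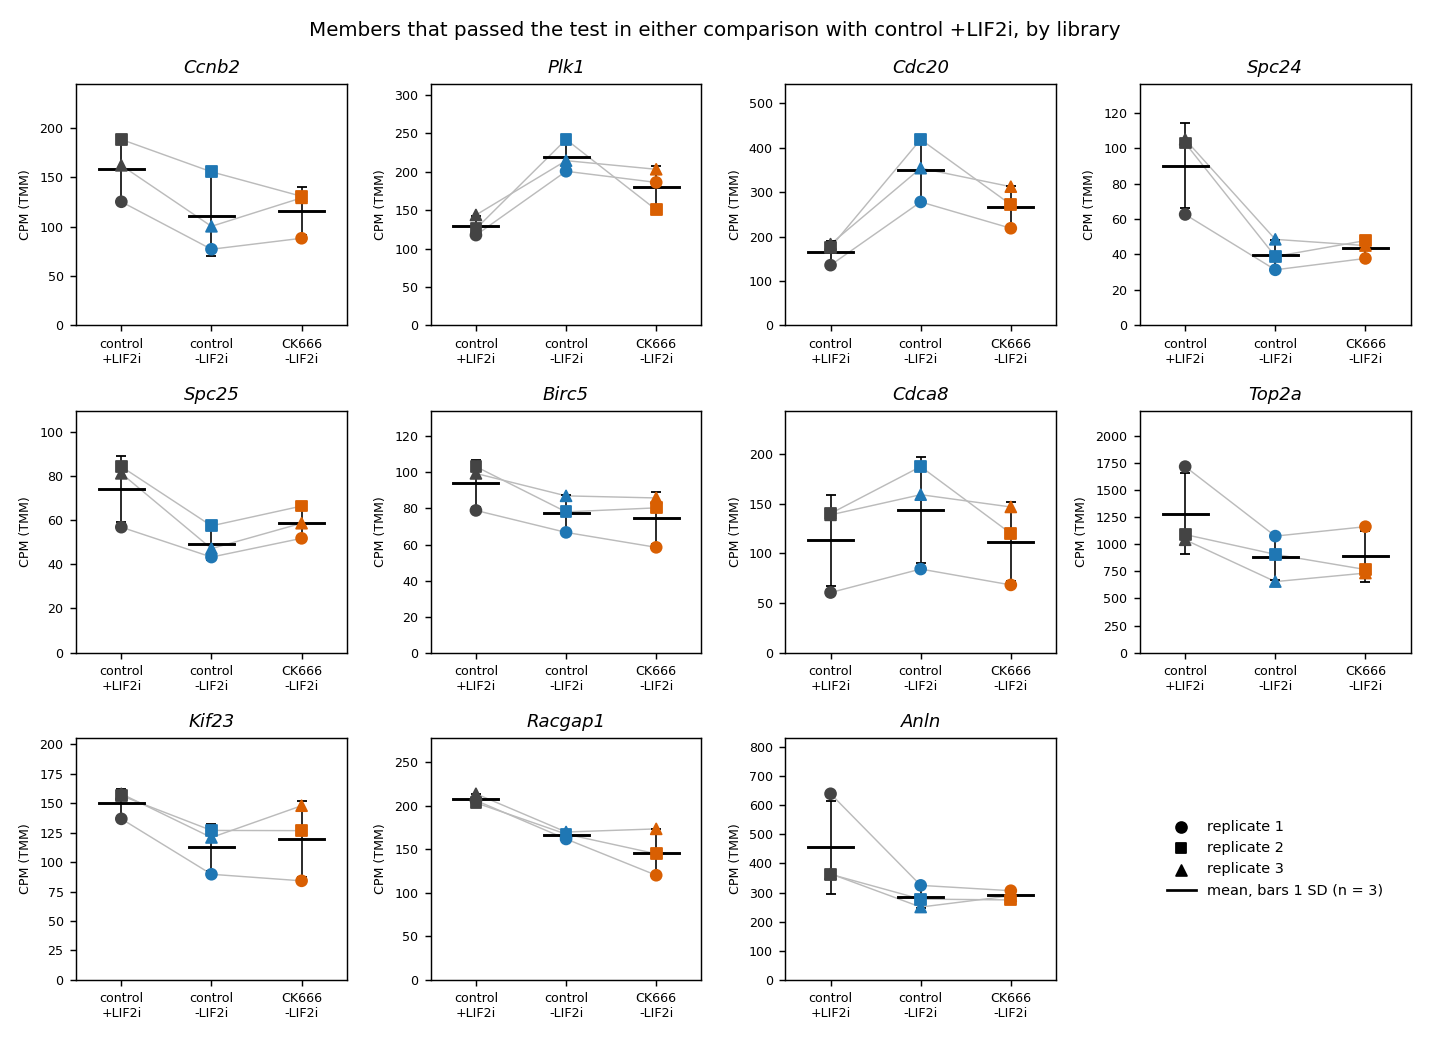
CPM (TMM-scaled) in every library for the 11 members that passed the test in either comparison with control +LIF2i. Symbols are replicate numbers joined by lines, colours are groups, black lines are means and bars are 1 SD (n = 3). Cdc20 and Plk1 are higher and Spc24 is lower in every library without LIF2i than in every library with it.

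Among the cyclins and Cdk1, only Ccnb2, which encodes cyclin B2, passed. It measured 125, 188 and 162 CPM with LIF2i and 77, 155 and 100 CPM without, in replicate order. Each pair fell, and the groups overlapped in replicate 2. The log2 fold change was -0.55 (SE 0.132, adjusted p = 0.00941). The call was lost without replicate 3 (adjusted p = 0.105), without control -LIF2i replicate 1 (0.0544) and without control -LIF2i replicate 3 (0.0697), and without the block (0.227). Ccnb1 had 387, 348 and 339 CPM with LIF2i and 415, 447 and 383 CPM without, a log2 fold change of 0.21 (SE 0.113, adjusted p = 0.164). It passed without replicate 1 (0.30, adjusted p = 0.0398) and without control +LIF2i replicate 1 (0.31, adjusted p = 0.0419). The ratio of Ccnb1 to Ccnb2 in CPM was 3.09, 1.85 and 2.09 with LIF2i and 5.39, 2.88 and 3.82 without, higher in each pair. With CK666 it was 3.68, 2.61 and 2.64. The ratio was not tested. Cdk1 had a log2 fold change of 0.27 (adjusted p = 0.191) and Ccna2, cyclin A2, of 0.01 (adjusted p = 0.951).

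The mitotic kinases divided. Plk1, the polo-like kinase that acts on centrosomes, kinetochores and the cleavage site, stood at 118, 126 and 144 CPM with LIF2i and at 201, 242 and 214 CPM without. The groups did not overlap, and the log2 fold change was 0.77 (SE 0.137, adjusted p = 0.00194). Aurka, the Aurora kinase of centrosomes and spindle poles, stood at 113, 103 and 109 CPM and then 107, 127 and 109 CPM, a log2 fold change of 0.07 (adjusted p = 0.68). The interval for Aurka was -0.21 to 0.36. The Plk1 call passed under all 20 alternative settings, with adjusted p up to 0.0189, and without the block it was 0.0122.

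The outer kinetochore held the strongest fall. Spc24 and Spc25 form the inner end of the NDC80 complex, which grips microtubules through Ndc80 and Nuf2. Spc24 (chr9:21755442-21760303, minus strand, GRCm38) measured 62.6, 103 and 105 CPM with LIF2i and 31.4, 38.9 and 48.5 CPM without. Every library without LIF2i was below every library with it, and the log2 fold change was -1.17 (SE 0.141, adjusted p = 0.000223). Spc25 measured 56.8, 84.2 and 81.1 CPM and then 43.2, 57.4 and 47.1 CPM, a log2 fold change of -0.58 (SE 0.122, adjusted p = 0.00483). It fell in each pair, and the call was lost without replicate 3 (adjusted p = 0.105) and without the block (0.0607). Ndc80 had a log2 fold change of -0.34 (interval -0.74 to 0.05, adjusted p = 0.153) and Nuf2 of -0.03 (interval -0.29 to 0.23, adjusted p = 0.867). Per length, the ratio of Spc24 to Nuf2 in TPM was 2.19, 4.14 and 4.59 with LIF2i, 1.35, 1.81 and 1.8 without, and 1.69, 2.71 and 2.35 with CK666. It was lower in each pair without LIF2i, and was not tested. Spc24 kept its call under all 20 alternatives, with adjusted p up to 0.00688. The remaining members of the group, Cenpa, the spindle-binding motor Cenpe and the kinetochore protein Cenpf, had log2 fold changes of 0.21, -0.23 and -0.03, with adjusted p of 0.226, 0.421 and 0.91. Cenpe passed at -0.50 (adjusted p = 0.0463) without control +LIF2i replicate 2.

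None of the 4 spindle checkpoint members passed. Their log2 fold changes were -0.02 for Bub1, 0.10 for Bub1b, 0.11 for Mad2l1 and -0.30 for Ttk, the kinase also called Mps1, with adjusted p of 0.91, 0.488, 0.445 and 0.0828. Ttk was lower without overlap, at 81.4, 86.6 and 101 CPM against 73.0, 78.5 and 66.7 CPM, and it passed with the length offset (log2 fold change -0.45, adjusted p = 0.0243).

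Cdc20 (chr4:118432901-118437352, minus strand), the target of that checkpoint, rose most. It measured 136, 176 and 183 CPM with LIF2i and 278, 418 and 354 CPM without. The groups did not overlap, and the log2 fold change was 1.08 (SE 0.118, adjusted p = 0.000127). Adjusted p stayed at or under 0.00737 in all 20 alternatives, where the highest was that without the block. The ratio of Cdc20 to Mad2l1 in CPM was 0.920, 1.22 and 1.18 with LIF2i and 1.99, 2.40 and 2.06 without, with no overlap, and was not tested. Of 31-base words in Cdc20 transcripts, 26.7% also occur in another gene, for the most part the processed pseudogene Gm7856, which had at most 0.181 TPM in any library. The other members of the exit group did not pass: Ube2c had a log2 fold change of 0.03 and Espl1, which encodes separase, of -0.23, with adjusted p of 0.88 and 0.163. Pttg1, which encodes securin, was the scarcest member in counts, at 9.43, 16.9 and 7.59 CPM with LIF2i and 8.44, 37.0 and 20.6 CPM without. Its log2 fold change was 0.76 (interval -0.01 to 1.53, adjusted p = 0.108). Without replicate 1 that value was 1.27 (adjusted p = 0.00374), without control +LIF2i replicate 1 it was 1.28 (adjusted p = 0.00182), and with limma voom it was 0.92 (adjusted p = 0.047).

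The chromosomal passenger complex, which corrects faulty kinetochore attachments and later marks the cleavage plane, did not move together. Cdca8, which encodes borealin, measured 60.5, 140 and 139 CPM with LIF2i and 84.2, 188 and 159 CPM without. It rose in each pair, the groups overlapped, and the log2 fold change was 0.37 (SE 0.125, adjusted p = 0.0423). This call was lost in 9 of the 12 settings that left out libraries, with adjusted p of 0.0555 to 0.201, the highest without control -LIF2i replicate 2, and without the block (0.611). Cdca8 passed in 8 of all 20 alternatives. Birc5, which encodes survivin, measured 78.9, 103 and 99.4 CPM and then 66.7, 78.1 and 87.0 CPM, lower in each pair, with a log2 fold change of -0.28 (adjusted p = 0.0701). Aurkb, the kinase of the complex, and its scaffold Incenp had log2 fold changes of 0.13 and 0.04 (adjusted p of 0.423 and 0.796).

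Of the 7 spindle and chromosome members, Top2a passed. It measured 1716, 1089 and 1041 CPM with LIF2i and 1075, 907 and 655 CPM without, lower in each pair, with an overlap through replicate 1. The log2 fold change was -0.53 (SE 0.133, adjusted p = 0.011). The call was lost without replicate 3 (adjusted p = 0.153), without control +LIF2i replicate 3 (0.0542), without control -LIF2i replicate 1 (0.0672) or 3 (0.085), and without the block (0.235). The motors Kif11, Kif2c and Kif4, the spindle assembly factor Tpx2 and the microtubule binder Nusap1 had log2 fold changes from -0.28 to -0.12, and none passed. Nusap1 passed at -0.48 (adjusted p = 0.0391) without control -LIF2i replicate 2. Mki67, which coats mitotic chromosomes and encodes the proliferation antigen Ki-67, had 390, 245 and 287 CPM with LIF2i and 285, 345 and 321 CPM without. Its log2 fold change was 0.07 (interval -0.31 to 0.45, adjusted p = 0.776), and without replicate 1 it was 0.36 (adjusted p = 0.0358).

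Of the 6 central spindle and cytokinesis members 2 were lowered and 0 raised, against 19.7% and 21.1% of all genes. Anln, which encodes anillin, the scaffold of the contractile ring, measured 640, 363 and 365 CPM with LIF2i and 325, 277 and 250 CPM without. The groups did not overlap, and the log2 fold change was -0.65 (SE 0.154, adjusted p = 0.00889). The call was lost without replicate 3 (adjusted p = 0.057), without control -LIF2i replicate 1 (0.0571) and without the block (0.0763). Kif23 and Racgap1 encode the subunits of centralspindlin, which bundles midzone microtubules and recruits the RhoA activator Ect2. Kif23 measured 137, 157 and 158 CPM and then 89.7, 127 and 121 CPM, without overlap, a log2 fold change of -0.44 (SE 0.13, adjusted p = 0.024). That call was lost in 6 of the 12 settings that left out libraries, with adjusted p of 0.0535 to 0.117, the highest without control -LIF2i replicate 3, and without the block (0.223). Kif23 passed in 11 of all 20 alternatives. Racgap1 measured 206, 203 and 214 CPM and then 162, 167 and 170 CPM. These groups were well apart, yet with a log2 fold change of -0.32 (SE 0.121) the adjusted p was 0.0596. It was 0.0419 when CK666 -LIF2i replicate 1 was left out of the shared fit. Prc1, a midzone crosslinker, Kif20a, a motor of the midzone, and Ect2 had log2 fold changes of -0.22, -0.07 and -0.04, and none passed. Kif20a shares 29.3% of its exonic bases with Cdc23 on the other strand. Ect2 in replicate 1 went the other way from replicates 2 and 3, and without replicate 1 its log2 fold change was 0.31 (adjusted p = 0.0487).

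**Figure D4:**
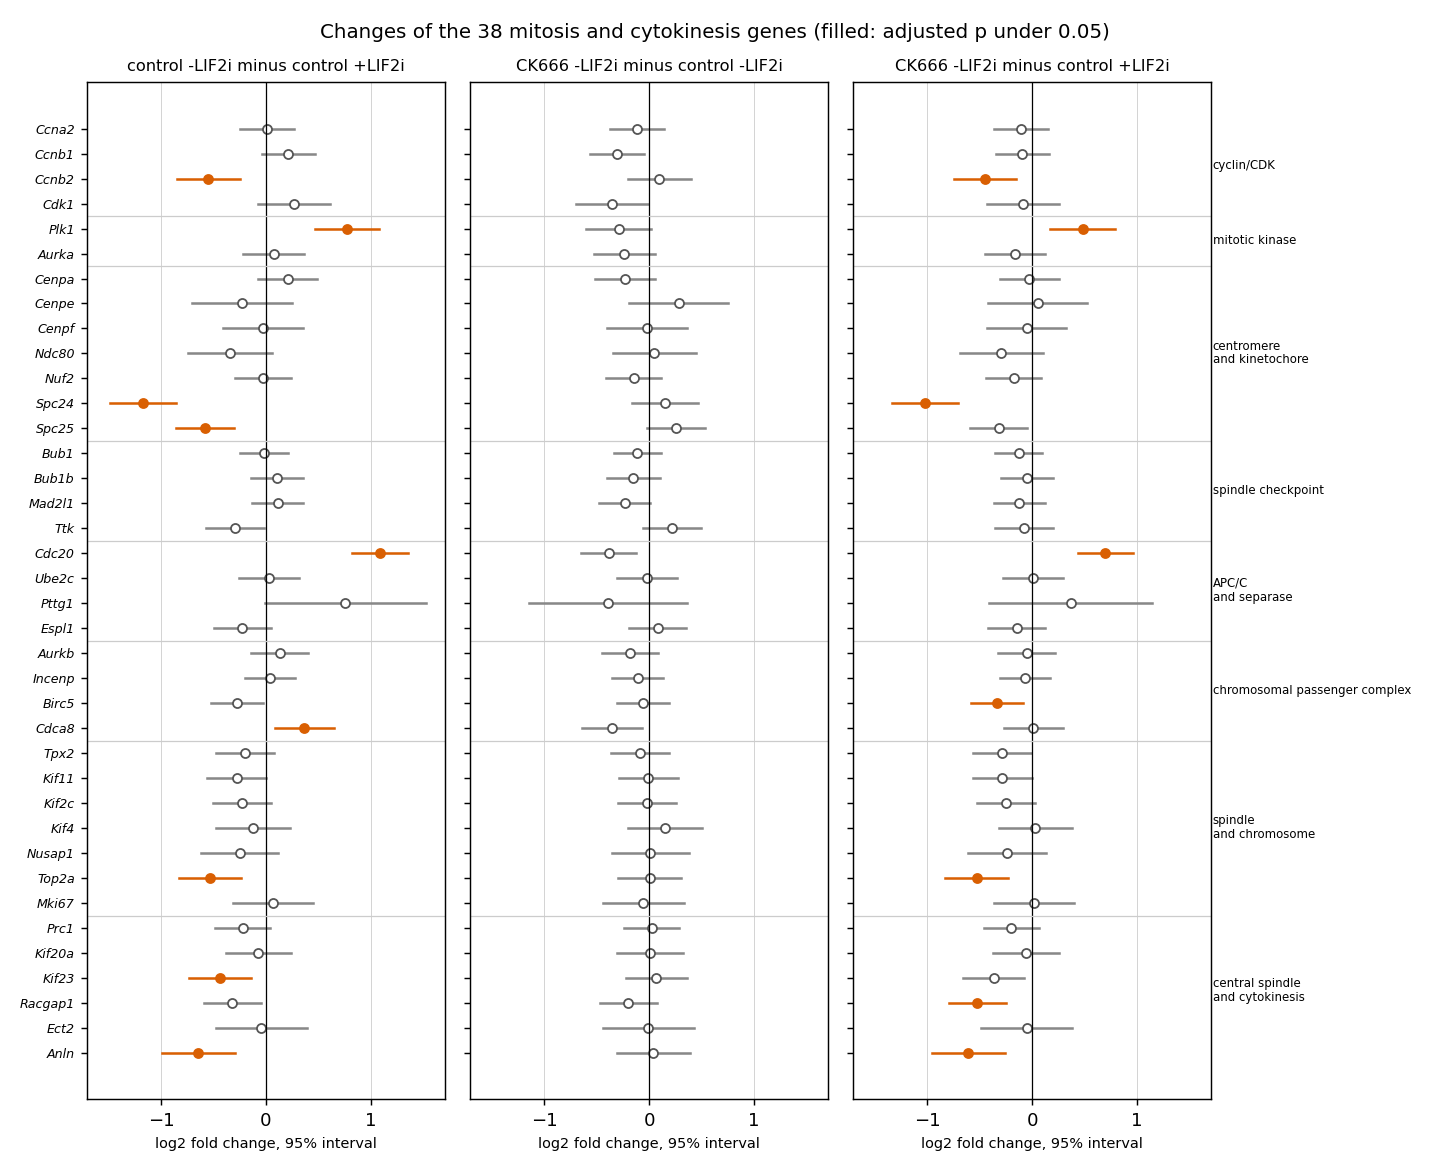
Log2 fold change with its 95% interval for each of the 38 members, grouped by role, in the 3 comparisons of the groups. Filled orange points passed the test at an adjusted p under 0.05: 9 in the left panel, 0 in the middle panel and 8 in the right panel.

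The second comparison, CK666 -LIF2i against control -LIF2i, asks what inhibiting Arp2/3 does to these genes during the same 72 h. The members' log2 fold changes ran from -0.39 to 0.28 between these groups. Cdc20, Cdca8, Cdk1 and Ccnb1 had the lowest unadjusted p-values, all with lower values under CK666, and none passed. By edgeR, 0 of 38 members passed the adjusted threshold, 4 had an unadjusted p under 0.05, and 2.05% of all genes passed, 1.15% raised and 0.894% lowered. The change under CK666 also varied with transcript length: its rank correlation with log2 effective length was 0.39 over the members and 0.09 over all genes, against -0.25 and 0.0029 for withdrawal. Cdc20, Cdca8, Cdk1 and Ccnb1 have effective lengths of 1529, 1311, 612 and 1722 bases. With an offset for length their log2 fold changes under CK666 were -0.39, -0.33, -0.31 and -0.32, with adjusted p of 0.164 to 0.463. DESeq2 called 1 member, Cdc20 (log2 fold change -0.40, adjusted p = 0.0363), beside 7.76% of all genes. Limma voom called 0 members beside 3.78% of all genes, and the fit without the block called 0 of either. Without replicate 1, 2 members passed, both lowered, beside 12.3% of all genes, and without control +LIF2i replicate 1, 3 passed, all lowered, beside 11%. The median log2 fold change was -0.04 over the members and 0.02 over all genes, and the extremes were -0.39 for Pttg1 and 0.28 for Cenpe. In CPM 2 members, Ttk and Cenpe, were higher and 1, Ccnb1, was lower with no overlap, against 8.79% and 7.69% of all genes. In 4 members all 3 pairs were higher under CK666 (25.3% of all genes) and in 10 all 3 were lower (23.3% of all genes).

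The size of change that these libraries leave possible is given by the 95% intervals. For 37 of the 38 members the interval lay within a log2 fold change of 1 in either direction, and for 27 of them it lay within 0.5. The exception at the wider bound was Pttg1, with an interval of -1.14 to 0.36. For the other 37 members the bounds ran from -0.69, for Cdk1, to 0.75, for Cenpe. A p-value above the threshold does not show that the groups were alike.

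Cdc20 measured 278, 418 and 354 CPM in control -LIF2i and 219, 272 and 312 CPM in CK666 -LIF2i. It was lower in each pair, the groups overlapped, and the log2 fold change was -0.38 (SE 0.116, interval -0.65 to -0.12, adjusted p = 0.114). Without replicate 1 it passed at -0.42 (adjusted p = 0.0491), and without control +LIF2i replicate 1 at -0.40 (adjusted p = 0.0338). Ccnb1 measured 415, 447 and 383 CPM and then 324, 341 and 341 CPM, each CK666 library below each control library, with a log2 fold change of -0.31 (SE 0.113, adjusted p = 0.178). It passed at -0.32 (adjusted p = 0.0473) without control +LIF2i replicate 1. Cdk1 measured 80.7, 193 and 160 CPM and then 70.2, 124 and 134 CPM, a log2 fold change of -0.35 (SE 0.151, adjusted p = 0.236). It passed at -0.46 (adjusted p = 0.0384) without replicate 1 and at -0.38 (adjusted p = 0.0499) without control +LIF2i replicate 1. Cdca8 measured 84.2, 188 and 159 CPM and then 68.2, 120 and 147 CPM, with a log2 fold change of -0.35 (SE 0.125, adjusted p = 0.162). Plk1 measured 201, 242 and 214 CPM and then 186, 150 and 203 CPM, with a log2 fold change of -0.29 (SE 0.136, adjusted p = 0.277).

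Members on the lowered side of the withdrawal response gave small values under CK666. Spc24 measured 31.4, 38.9 and 48.5 CPM without the drug and 37.8, 47.8 and 45.0 CPM with it, a log2 fold change of 0.15 (interval -0.16 to 0.47). Spc25 measured 43.2, 57.4 and 47.1 CPM and then 51.7, 66.3 and 58.5 CPM, higher in each pair, a log2 fold change of 0.26 (interval -0.01 to 0.53, adjusted p = 0.277). Anln, Ccnb2, Top2a and Kif23 had log2 fold changes of 0.04, 0.10, 0.01 and 0.07. The cytokinesis members Prc1, Kif20a and Ect2 had 0.02, 0.01 and -0.01, and Racgap1 had -0.20 (interval -0.47 to 0.07). Among the checkpoint members Ttk had 0.22 (interval -0.06 to 0.49) and Bub1, Bub1b and Mad2l1 had -0.11, -0.15 and -0.23. The withdrawal comparison and this one share the control -LIF2i libraries, so a chance high or low value there pushes both in opposite directions.

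The third comparison, CK666 -LIF2i against control +LIF2i, gives the total distance of the drug-treated cells from self-renewal. Cdc20 and Plk1 were raised, and Spc24, Anln, Top2a, Racgap1, Ccnb2 and Birc5 were lowered. In all, 8 of 38 members (21.1%) passed, 2 raised and 6 lowered, while 36.9% of all genes passed, 19.8% raised and 17.1% lowered. The median log2 fold change was -0.11 over the members and 0.01 over all genes. Over the 8183 genes within the members' range of mean level, 18.1% were raised and 19.7% lowered, with a median of -0.04. All 3 pairs were lower in 17 members and higher in 2, against 30.1% and 32.0% of all genes. Without replicate 1, 9 members passed beside 41.6% of all genes, and without the block 1 passed, Spc24, beside 20.2%. The count was 3 without replicate 3, beside 16.1% of all genes. It was 4 without replicate 2, without control +LIF2i replicate 3 or without CK666 -LIF2i replicate 1, beside 22.5%, 24.8% and 28.8% of all genes, and 5 without CK666 -LIF2i replicate 2, beside 25.7%.

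Cdc20, at 136, 176 and 183 CPM with LIF2i and 219, 272 and 312 CPM under CK666, had a log2 fold change of 0.70 (SE 0.117, adjusted p = 0.00162), and Plk1 had 0.48 (SE 0.136, adjusted p = 0.0217). Neither gene's groups overlapped, and without the block the adjusted p was 0.0543 and 0.0856. The Plk1 call was lost in 5 of the 12 settings that left out libraries, with adjusted p of 0.0544 to 0.141, the highest without replicate 3. Spc24 had -1.02 (SE 0.141, adjusted p = 0.000564), again with no overlap. Anln had -0.61 (SE 0.155, adjusted p = 0.0138) and Top2a -0.53 (SE 0.133, adjusted p = 0.0132). Ccnb2 had -0.45 (SE 0.132, adjusted p = 0.0252). The Anln call was lost without replicate 3 (adjusted p = 0.0547) and without CK666 -LIF2i replicate 1 (0.0656). Top2a lost its call in 4 of those 12 settings and Ccnb2 in 5, with adjusted p of up to 0.121 without replicate 3 and 0.137 without CK666 -LIF2i replicate 2. Of all 20 alternatives Top2a passed 15 and Ccnb2 passed 13.

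Racgap1 measured 206, 203 and 214 CPM with LIF2i and 120, 145 and 173 CPM under CK666, with no overlap and a log2 fold change of -0.52 (SE 0.121, adjusted p = 0.00904). It lost the call without replicate 2 (adjusted p = 0.0576). Set beside the -0.32 of the withdrawal comparison, which did not pass, this does not show a drug effect: the direct contrast of the groups without LIF2i gave an adjusted p of 0.404. Birc5 had -0.34 (SE 0.11, adjusted p = 0.0385), and all 12 settings that left out libraries lost that call, with adjusted p of 0.0519 to 0.18. It passed in 4 of all 20 alternatives. Spc25 had -0.32 (adjusted p = 0.0673) and passed without replicate 1 (-0.40, adjusted p = 0.024) or without control +LIF2i replicate 1 (-0.40, adjusted p = 0.0223). Kif23 had -0.37 (adjusted p = 0.0525) and passed at -0.74 (adjusted p = 0.00796) with the length offset, at -0.72 (adjusted p = 0.0225) on log2(TPM + 1), at -0.37 with DESeq2 and with voom (adjusted p of 0.0481 and 0.047) and at -0.49 (adjusted p = 0.0402) without CK666 -LIF2i replicate 3. Pttg1 had 0.37 (adjusted p = 0.439) and passed at 0.87 without replicate 1 (adjusted p = 0.025) or without control +LIF2i replicate 1 (adjusted p = 0.0168). Cdca8 had 0.01, with an interval of -0.27 to 0.29.

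Other genes of the same machinery, in lists of textbook members, give the setting. Their counts after withdrawal without CK666 are read against the 21.1% of all genes that were raised and the 19.7% that were lowered. Lowered calls outnumbered raised ones in 7 of the 8 lists, and in 4 of 8 without the block. Over the other alternatives this tally ranged from 5 to 7 of 8. Among other kinetochore and checkpoint genes 14 of 35 were lowered (40%) and 0 raised, with a median log2 fold change of -0.34. The largest falls were in Sgo2a, a shugoshin that guards centromeric cohesion (-1.01, SE 0.174, adjusted p = 0.00166), and Kntc1, a checkpoint protein of the kinetochore (-1.0, SE 0.182, adjusted p = 0.00229). Kntc1 stood at 210, 198 and 221 CPM with LIF2i and at 105, 120 and 92.7 CPM without. Among other mitotic kinases, phosphatases and APC/C genes 1 of 26 was raised and 6 were lowered (23.1%, near the share over all genes). The APC/C subunits Anapc11 and Anapc10 went opposite ways, with log2 fold changes of 0.54 and -0.58 (adjusted p of 0.0137 and 0.0312), and Bora, a cofactor in the activation of Plk1, fell by 0.58 on the log2 scale (adjusted p = 0.0187). Of the 20 alternatives Anapc11 passed 14, Anapc10 passed 9 and Bora passed 13, and without the block their adjusted p was 0.316, 0.0944 and 0.0704. Among other spindle motors and microtubule genes 2 of 23 were raised and 7 lowered (30.4%), with Kif15 at -0.87 (adjusted p = 0.00032) and Kif14 at -0.78 (adjusted p = 0.0146), and Clasp1 at 0.64 (adjusted p = 0.0139). Kif15 passed in all 20 alternatives, Kif14 in 15 and Clasp1 in 12, and without the block the adjusted p of the last 2 was 0.0578 and 0.428.

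Among chromatid condensation and cohesion genes 2 of 18 were raised and 7 lowered (38.9%). The cohesin subunit Stag2 rose (1.20, SE 0.107, adjusted p = 4.36e-05), from 144, 98.4 and 110 CPM to 364, 224 and 228 CPM, while the cohesin subunits Smc1a and Rad21 fell (-0.52 and -0.42, adjusted p of 0.0142 and 0.0381). Stag2 passed in all 20 alternatives, while Smc1a passed in 14 and Rad21 in 7, with adjusted p of 0.0682 and 0.153 without the block. Among other cytokinesis and abscission genes 5 of 28 were raised (17.9%) and 10 lowered (35.7%). Cep55, which recruits the abscission machinery to the midbody, fell from 96.7, 96.5 and 111 CPM to 14.7, 37.7 and 32.9 CPM (-1.94, SE 0.227, adjusted p = 0.000192). Chmp4c, an ESCRT-III subunit of the abscission checkpoint, fell too (-1.21, SE 0.241, adjusted p = 0.00361, and 0.0669 without the block), and the septin Sept6 rose (1.54, SE 0.14, adjusted p = 4.8e-05). Without the block, where 13.1% of all genes were raised and 10.9% lowered, the kinetochore list had 0 raised and 3 lowered, the kinase list 0 and 0, the motor list 0 and 4, the cohesion list 1 and 0 and the cytokinesis list 3 and 3. When libraries or replicate numbers were left out, the lowered calls ranged from 3 to 14 in the kinetochore list, 0 to 5 in the kinase list, 3 to 9 in the motor list, 0 to 5 in the cohesion list and 7 to 10 in the cytokinesis list. The lower end of each range was reached without replicate 3, where 9.54% of all genes were lowered. A single library also moved these counts: the kinetochore and kinase lists had 5 and 0 lowered without control +LIF2i replicate 3, 5 and 1 without control -LIF2i replicate 3, 7 and 0 without control -LIF2i replicate 2, and 7 and 3 without control -LIF2i replicate 1. The motor list had 6, 4, 7 and 6 lowered and the cohesion list 1, 0, 1 and 1 in those 4 settings, where 13.5%, 12.7%, 13.4% and 14.5% of all genes were lowered.

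The regulators known to drive mitotic genes had 2 of 18 raised (11.1%) and 3 lowered (16.7%). Without control +LIF2i replicate 1 or without replicate 1, 1 was raised and 5 were lowered, beside 19.5% and 21% of all genes lowered. In the other 18 alternatives 1 or 2 were raised and 3 lowered, beside 9.54% to 20.7% of all genes lowered. Mybl2, the B-Myb factor that binds the MuvB complex at promoters of cell cycle genes, fell from 963, 877 and 1020 CPM to 259, 286 and 204 CPM (-1.96, SE 0.185, adjusted p = 5.86e-05). Rbl2, the p130 pocket protein, also fell (-1.60, adjusted p = 0.00104), and the repressor E2f7 rose (1.08, SE 0.154, adjusted p = 0.000552). Among S phase genes 1 of 26 was raised and 12 were lowered (46.2%), with a median of -0.37. Rrm2, a subunit of ribonucleotide reductase, had -1.13 (adjusted p = 0.0066) and Uhrf1, which maintains DNA methylation at replication, had -1.08 (adjusted p = 0.000125). Rrm2 passed in 19 of the 20 alternatives, with adjusted p up to 0.0932, and Uhrf1 in 20. Without the block 0 of the S phase genes were raised and 4 lowered. The lowered count was 16 without replicate 1, 5 without replicate 2 and 5 without replicate 3, beside 21%, 11.7% and 9.54% of all genes lowered. Among single libraries the lowest count was 7, without control +LIF2i replicate 3, beside 13.5%. Of the CDK inhibitors and G1 cyclins 5 of 14 were raised and 5 lowered. Without replicate 2, control +LIF2i replicate 2 or control -LIF2i replicate 2, 4 were raised and 2 lowered, beside 11.7%, 15.9% and 13.4% of all genes lowered. The lowered count was 3 without the block, with the length offset, without replicate 3, without control -LIF2i replicate 1 or 3 and without CK666 -LIF2i replicate 2. Ccnd2, cyclin D2, rose from 1.92, 0.418 and 0.850 CPM to 44.7, 7.27 and 16.0 CPM (4.37, SE 0.225, adjusted p = 3.82e-06), and the inhibitor Cdkn1c rose (2.15, adjusted p = 0.000206). Ccnd3, cyclin D3, and the inhibitor Cdkn1a fell (-1.33 and -0.98, adjusted p of 0.000159 and 0.0166). Cdkn1a passed in 13 of the 20 alternatives and Ccnd3 in 20.

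**Figure D5:**
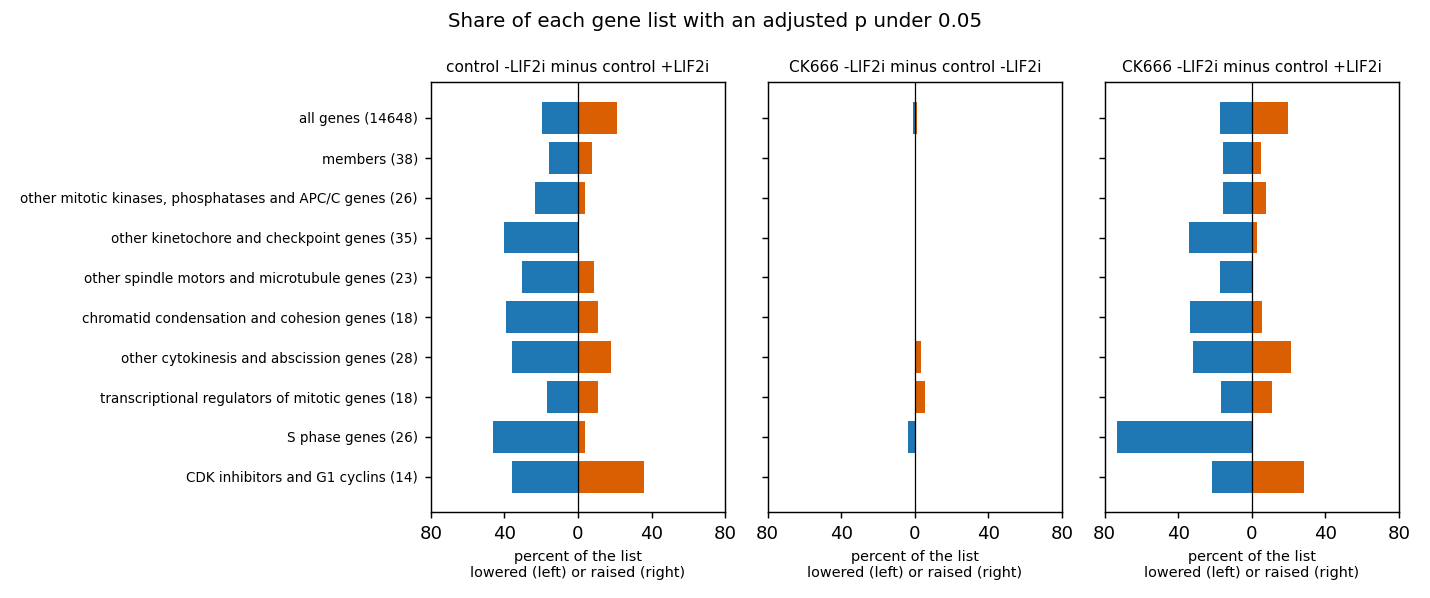
Share of each gene list (number of genes in brackets) that passed the test, lowered to the left in blue and raised to the right in orange, in the 3 comparisons, with all genes in the top row. In the left panel 40% of the kinetochore list was lowered and 0 raised, and in the middle panel 3 of the 8 other lists hold 1 passing gene each.

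Under CK666 against control -LIF2i, 3 genes of these lists passed in the main edgeR fit, where 1.15% of all genes were raised and 0.894% lowered. Mybl2 was higher, at 435, 649 and 384 CPM against 259, 286 and 204 CPM (0.96, SE 0.18, adjusted p = 0.036). Arhgef2, a microtubule-bound RhoA activator also known as GEF-H1, was higher, at 223, 181 and 184 CPM against 155, 118 and 118 CPM (0.60, SE 0.102, adjusted p = 0.0304). Ccne2, cyclin E2, was lower, at 9.53, 3.51 and 4.41 CPM against 18.0, 9.71 and 16.7 CPM (-1.43, SE 0.249, adjusted p = 0.0304). In none of these 3 did the groups overlap, and without the block their adjusted p was 0.333, 0.356 and 0.418. They passed in 10, 10 and 11 of the 20 alternatives. In the main edgeR fit no gene of the kinetochore, kinase, motor, cohesion or CDK inhibitor lists passed. Without replicate 1, beside 12.3% of all genes, the kinetochore list had 2 raised and 1 lowered and the kinase list 0 and 1. The motor list had 2 and 0 there and the CDK inhibitor list 3 and 1. Without control +LIF2i replicate 1, 11% of all genes passed. There these lists, in the same order, had 0 and 0, 0 and 1, 3 and 0, and 3 and 2. Without a filter on low counts the motor and CDK inhibitor lists had 1 raised each, beside 2.5% of all genes. DESeq2 called 1 gene of the kinase list, 2 of the motor list and 3 of the CDK inhibitor list, and voom called 0, 1 and 3, where these tools called 7.76% and 3.78% of all genes. Of the 26 S phase genes 1 was lowered by edgeR, 4 by DESeq2 and 2 by voom, beside 0.894%, 3.78% and 1.71% of all genes. The S phase count was 0 without the block, with the length offset, on log2(TPM + 1), without replicate 2 and without replicate 3, and 8 without replicate 1, where 6.19% of all genes were lowered. It was also 0 without control -LIF2i replicate 2 or 3 and without CK666 -LIF2i replicate 2 or 3, 7 without control +LIF2i replicate 1 and 4 without CK666 -LIF2i replicate 1, where 5.45% and 1.26% of all genes were lowered.

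Against control +LIF2i, where 17.1% of all genes were lowered, CK666 cells had 19 of 26 S phase genes lowered (73.1%) and 0 raised, and 12 of 35 kinetochore genes lowered (34.3%) and 1 raised. Without the block, where 8.10% of all genes were lowered, these counts fell to 6 and 3. Without replicate 3, where 6.68% of all genes were lowered, they fell to 4 and 1. Leaving out libraries or replicate numbers gave 4 to 23 S phase genes and 1 to 12 kinetochore genes lowered. Single libraries moved the counts as well, to 12 and 12 without control +LIF2i replicate 2, 11 and 5 without control +LIF2i replicate 3, 12 and 5 without CK666 -LIF2i replicate 2, 10 and 3 without CK666 -LIF2i replicate 3, and 21 and 7 without CK666 -LIF2i replicate 1. In those 5 settings, in the same order, 13.4%, 10.8%, 11.1%, 10.1% and 12.6% of all genes were lowered. In the main fit 19.8% of all genes were raised. There the kinase list had 2 raised and 4 lowered (15.4%), the motor list 0 and 4 (17.4%) and the regulators 2 and 3 (16.7%). The cohesion list had 1 and 6 (33.3%), the cytokinesis list 6 and 9 (32.1%) and the CDK inhibitor list 4 and 3 (21.4%). With libraries or replicate numbers left out, their lowered counts went down to 0, 2, 1, 0, 6 and 2, in that order. In those settings 6.68% to 19.4% of all genes were lowered.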

How the data were processed

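RNA was measured in 9 libraries by poly-T selected sequencing. Per the submitters' processing notes, FastQC, cutadapt 1.8.1, kallisto and sleuth were used, and the notes name the builds mm10 and GRCh38 without a role. The transcript release and strand setting are not given in the sources used here. For 119414 transcripts, the authors deposited an estimated count, TPM and effective length per library (column names per the file headers). The deposited estimated counts were raw and fractional, and the deposited TPM was scaled to a fixed total after division by effective length.

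GENCODE M21 (GRCm38) gave a gene for 116640 of these transcript identifiers (97.7%). The rest, 0.895% to 1.08% of a library's counts, were left out. Estimated counts were summed per gene, rounded, and tested with edgeR 4.0.16 in R 4.3.3 (TMM scaling, expression filter, robust quasi-likelihood test, all 9 libraries in one fit, replicate number as a block, 4 residual degrees of freedom). A gene was called, raised or lowered, at a Benjamini-Hochberg adjusted p under 0.05 over 14648 genes. SE comes from the test statistic, and intervals are 95%. With 3 counts as the floor, detection began at 0.133 to 0.178 CPM, which covers counting error only.

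The pairing comes from the design text and the numbered titles. Deviations from group means of same-numbered libraries correlated at a median r of 0.41 (0.30 to 0.65). Replicates of a group differed by a mean chi-square per gene of 17.2 to 218, over genes with at least 10 counts, so none was treated as a repeat deposit of another. That they are biological replicates rests on the design text alone. Alternatives were RLE scaling, DESeq2 1.42.0, limma 3.58.1 voom, other filters, an offset for transcript length, log2(TPM + 1) in limma with a minimum of 1 TPM in 3 libraries, no block, and leaving out each library or replicate number. The counts of the other lists under the alternatives were added after these had been seen.

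The 38 members, the gene lists, the tests and the motifs were chosen with earlier results of these data known. All members are named. From the other lists, at most the 2 raised and the 2 lowered called genes with the largest log2 fold change in a comparison are named. Exonic bases are shared with another gene in 10 members, over 5% of them in 6: Kif20a 29.3%, Ube2c 22.8%, Kif4 15.1%, Ccna2 12.5%, Prc1 11.1% and Plk1 7.09%, so their counts may have been divided with that gene. Of 31-base words, 27.8% of Ccnb1 and 14.8% of Plk1 also occur in other genes, mostly processed pseudogenes.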

Additional observations from a re-analysis of the deposited data

How the results depend on the processing

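Over 20 alternatives the withdrawal calls of Cdc20, Plk1 and Spc24 passed in 20, and so did that of Spc24 for CK666 against control +LIF2i. No called member changed direction under any of them. With no replicate block the members called were 3 (withdrawal), 0 (CK666) and 1 (CK666 against control +LIF2i), and the genes called 3509, 0 and 2966. At an unadjusted p under 0.05 that CK666 fit had 1251 genes. DESeq2 called 1 member for CK666. The count of all genes for CK666, 300 as reported, was 1136 with DESeq2, 553 with voom, 565 without a filter on low counts, 149 with the length offset and 39 on log2(TPM + 1); the cause was not tested. When libraries or replicate numbers were left out, members called ranged from 3 to 12, 0 to 3 and 3 to 9 in these comparisons, among 3099 to 6588, 0 to 1811 and 2413 to 6129 genes. The lowest counts came without replicate 3, and 1811 came without replicate 1. The median log2 fold change of the members ranged from -0.2432 to 0.0554, -0.1428 to 0.0598 and -0.1781 to -0.0856. Of members that did not pass, 12 of 29 for withdrawal, 16 of 38 for CK666 and 14 of 30 for the last comparison changed sign under at least one alternative. Ect2 for withdrawal, -0.04 as reported, ranged from -0.2707 (without replicate 2) to 0.3062 (without replicate 1, where it passed). With 3 libraries a group and 4 residual degrees of freedom, the smaller changes of single members were not settled at this depth and number of replicates.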
